A study of Mus musculus with 12 samples.

Results

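Collagen genes were followed in stromal cells of mouse bone marrow that carry a green fluorescent marker (GFP), in 4 settings with 3 RNA sequencing libraries each. The genes were taken by name, as every gene whose mouse symbol is Col, a number, the letter a and a number, which gave 43 of the 21001 genes listed in the deposited tables. They comprise 11 fibrillar chains, 8 basement membrane chains and 24 others. All cells were C57BL/6, with the genotype given as "wide type", and all 12 libraries were made from sorted cells. In NC the GFP cells were grown as a primary culture. For HOMING they were injected alone beneath the skin and then recovered from the host's marrow. For BM they were injected mixed with RFP-LLC, Lewis lung carcinoma cells of mouse origin with a red fluorescent marker, and again recovered from marrow. For TUMOR they were recovered from the site of that mixed injection. The time between injection and sorting, the age of the mice, the sorting gate and whether animals were pooled are not given in the sources used here. Nothing in the labels says that the 3 libraries of a group came from separate animals or cultures, so p-values measure only the spread between these libraries, which may be technical.

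Collagens are the main proteins of the extracellular matrix, and each is a trimer of chains wound into a triple helix. Fibrillar collagens (types I, III and V here) form the rope-like fibrils that carry tension, and basement membrane collagens (types IV and XVIII here) form sheets beneath epithelium and around vessels. The other collagens bead into microfilaments, sit on the surface of fibrils, span cell membranes or anchor one layer to another. Fibroblasts and marrow stromal cells are leading producers of types I, III, V and VI, and marrow is supported by reticular fibres rich in type III. A collagen chain is hydroxylated and folded in the endoplasmic reticulum, trimmed outside the cell by proteases and crosslinked by lysyl oxidases, so genes of these steps were examined beside the chains.

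Libraries held 43232145 to 46166519 expected counts, the authors' estimates of reads per transcript. Levels are given in FPKM (fragment counts divided by transcript length and by library size), which allows chains to be compared with each other. Fold changes are log2 differences ± SE from edgeR, positive where the group named first is higher. The verbs rise and fall are kept for called genes, those with an edgeR p below 0.05, adjusted over 12314 tested genes, and a difference of 2-fold or more. Of 12 stromal marker genes, 8 averaged 1 FPKM or more in NC and 9 in each of the other groups, and their summed level was 327 to 440 FPKM in NC, 406 to 415 in HOMING, 472 to 486 in BM and 322 to 355 in TUMOR. The stromal markers Thy1, Nt5e and Lepr were under 1 FPKM in all 4 groups, as was Eng in NC. The 12 leukocyte markers summed to 1683 to 2484 FPKM in HOMING, with every one of them at 1 FPKM or more, against 65.3 to 74.8 in BM, 3.17 to 4.82 in NC and 3.32 to 5.78 in TUMOR. Red cell markers, 6 in all, summed to 2104 to 3464 FPKM in HOMING and to at most 3.50 in any library of the other groups. Of 6 markers of simple epithelium and carcinoma, Krt8 (48.1 to 93.8 FPKM) and Krt19 (21.0 to 22.4) were present in TUMOR, while Epcam, Cdh1, Krt18 and Cldn4 were under 1 FPKM there. The summed level of 6 smooth muscle and pericyte markers was highest in NC, at 249 to 476 FPKM against 101 to 153 in the other groups. Most of it was Acta2, with a mean of 341 FPKM in NC. Myh11 and Rgs5 were under 1 FPKM in all 4 groups and were not highest in NC. NC replicate 3 and TUMOR replicate 1 stood furthest from the other libraries of their groups, with 28.1 to 49.9 as chi-square per gene against 3.09 to 17.6 in pairs without them, and collagen calls that were gained or lost without them are given beside those genes. How far blood or tumour cell RNA bears on the collagen levels was not tested.

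Cultured cells held the highest summed collagen level and cells from marrow without a tumour the lowest. All collagens together reached 910.5 ± 46.2 FPKM (mean ± SD, n = 3 libraries, as for all means here) in NC, 534.5 ± 25.6 in HOMING, 639.0 ± 22.4 in BM and 750.4 ± 52.0 in TUMOR. Ranges of the 4 groups did not overlap: the libraries ran from 879 to 964 FPKM in NC, 508 to 559 in HOMING, 613 to 655 in BM and 691 to 787 in TUMOR. The order NC, TUMOR, BM, HOMING held for the means of the fibrillar class (683 ± 22.0, 522 ± 59.7, 488 ± 16.8 and 397 ± 20.5 FPKM) and of the basement membrane class (128 ± 7.38, 107 ± 10.8, 71.4 ± 3.32 and 63.1 ± 2.05 FPKM). Neighbours in that order overlapped once in each class, since TUMOR replicate 1 had a fibrillar sum of 454 FPKM, under all 3 BM libraries, and a basement membrane sum of 119.65, just above the 119.52 of NC replicate 1. In the other collagens TUMOR came first, at 121 ± 3.13 FPKM, with NC at 100.2 ± 21.3, BM at 80.0 ± 2.29 and HOMING at 74.0 ± 3.17. NC and TUMOR overlapped there, because NC replicate 3 held 125 FPKM against 87.5 and 88.4 in the other NC libraries. These libraries are bulk samples, so fewer cells of a type and less RNA per cell cannot be told apart. No test was made on the class sums.

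**Figure D1:**
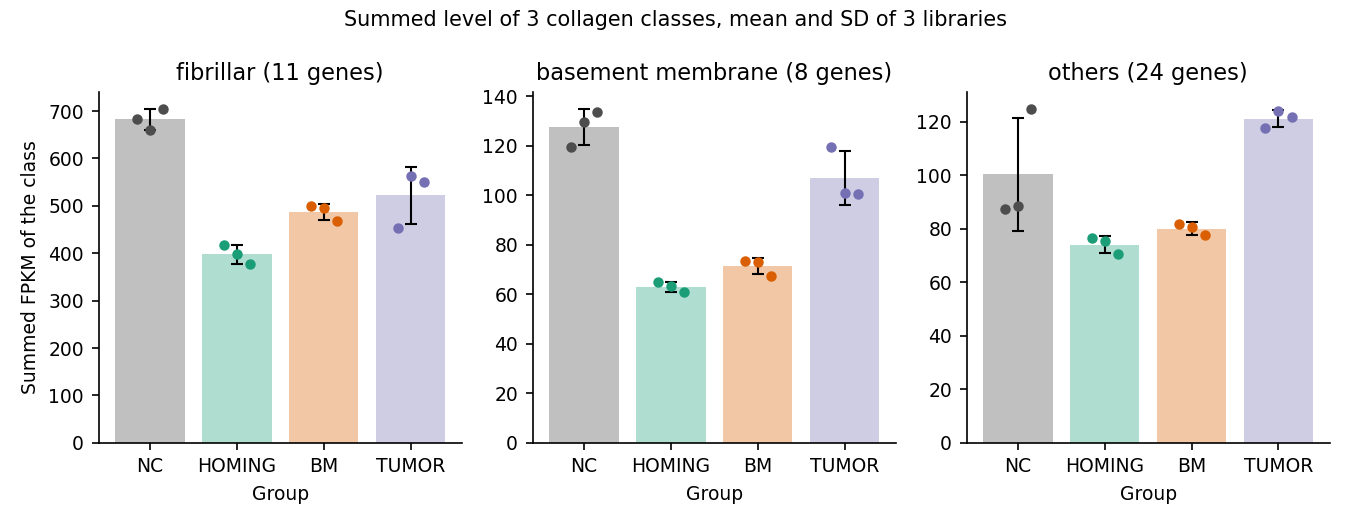
Summed FPKM of the fibrillar, basement membrane and other collagens (vertical axis of each panel, starting at 0) in the 4 groups (horizontal axis), with bars for means, lines for ± SD and points for the 3 libraries. Fibrillar and basement membrane sums are highest in NC and lowest in HOMING, while the other collagens are highest in TUMOR.

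Of the 43 collagens, 19 passed the filter of at least 1 FPKM in at least 3 libraries and were tested. The other 24 stayed under 1 FPKM in every library. The highest single value among them was 0.76 FPKM (Col11a1, a minor fibrillar chain, in TUMOR replicate 3), and 13 of them were under 0.1 FPKM in all 12 libraries. Those near zero included Col2a1, the main collagen of cartilage (0.01 to 0.09 FPKM), Col10a1, the collagen of hypertrophic cartilage (0.00 to 0.04), and Col9a2 (0.00 to 0.01). Levels of the tested chains spread widely. Col1a2 and Col1a1 were the first and second collagens in NC and TUMOR, and in HOMING and BM their order was reversed. Together these type I chains are the bulk of each group's collagen message, Col1a1 taking 28.1 to 33.6% and Col1a2 27.4 to 31.4% of the collagen FPKM across the 4 groups. Next came Col5a2 in NC (68.6 ± 7.36 FPKM), Col4a1 in HOMING (28.8 ± 0.924) and Col3a1 in BM (40.4 ± 0.991) and TUMOR (48.1 ± 6.12).

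**Figure D2:**
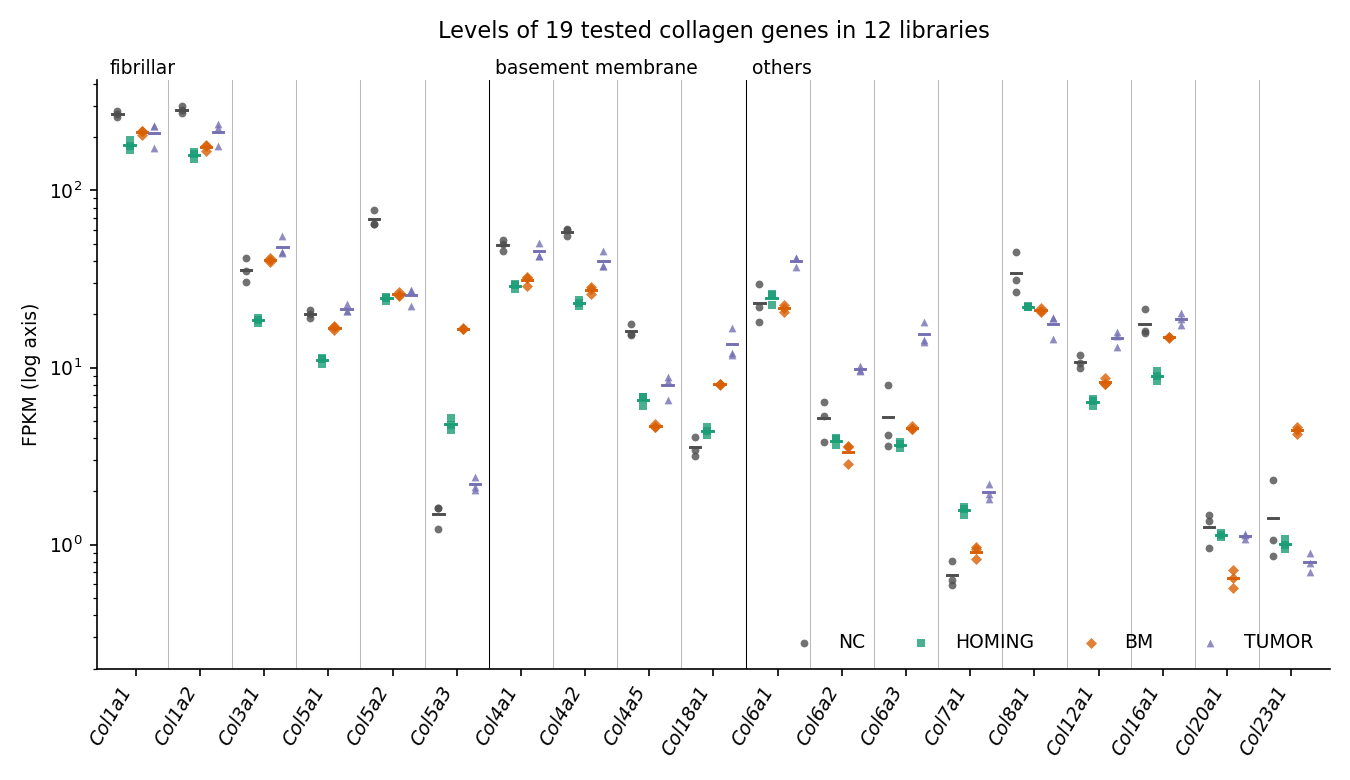
FPKM on a log axis (vertical) of the 19 tested collagen genes (horizontal, by class) in the 12 libraries, with a point for each library and a short line for each group mean. Col1a1 and Col1a2 lie above all others in every group, Col5a3 and Col23a1 are highest in BM, and Col6a1, Col6a2, Col6a3 and Col18a1 are highest in TUMOR.

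The study's 6 pairs of groups were compared gene by gene, and they share groups, so their counts are not independent of each other. Counts over the 19 describe the genes that passed the filter and not the whole family. Col7a1 passed only through HOMING and TUMOR, so its rises counted for those groups were partly set by the filter. Stromal cells recovered from marrow after injection without tumour cells (HOMING) had lower levels than cultured cells (NC) of chains of types III, IV and V and of the fibril-associated Col16a1, and higher levels of Col5a3 and Col7a1. Here 2 of 19 collagens rose and 5 fell, where 14.3% of all tested genes were called, 9.64% higher and 4.69% lower in HOMING. Without the 2-fold minimum, 13 of 19 were lower and 2 higher at an edgeR adjusted p under 0.05, against 34.6% and 35.4% of all tested genes. The median log2 difference of the 19 was -0.75, against 0.0096 for all tested genes. In BM against NC, 3 of 19 rose (Col5a3, Col23a1 and Col18a1) and 4 fell (Col4a5, Col5a2, Col4a2 and Col20a1), where the share called among all tested genes was 11.5%, with 7.93% higher and 3.57% lower. At any fold 4 were higher and 12 lower in BM, against 34.4% and 32.2% of all genes, and the median was -0.43 against 0.016. In TUMOR against NC, 3 rose (Col18a1, Col6a3 and Col7a1) and 3 fell (Col5a2, Col4a5 and Col8a1), with 16.4% of all tested genes called, 9.75% higher and 6.65% lower. At any fold 8 were higher and 8 lower, against 37.2% and 36.5% of all genes, and the median was -0.04 against 0.0090.

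BM against HOMING sets marrow of mice given tumour cells beside marrow of mice given none, and it had the fewest calls. Col23a1, Col5a3 and Col3a1 rose and 0 of 19 fell, against a share of 10.4% called among all tested genes, 3.71% up and 6.68% down in BM. Beside this count of 0 by edgeR, 3 of 19 were lower at an unadjusted p under 0.05, and DESeq2 and limma also called 0 lower. At any fold 9 were higher and 3 lower, against 29.3% and 28.8% of all tested genes, and the median was 0.27 against -0.0047. In TUMOR against BM, which compares both sites of mice given tumour cells, Col6a3, Col6a2 and Col7a1 rose and Col5a3 and Col23a1 fell, with 14.2% of all tested genes called, 6.95% higher and 7.28% lower. At any fold 13 of 19 were higher in TUMOR and 2 lower, against 35.4% and 34.2%, with a median of 0.50 against 0.0098. In TUMOR against HOMING, 6 rose (Col6a3, Col18a1, Col3a1, Col6a2, Col12a1 and Col16a1) and Col5a3 fell, with 10.8% of all tested genes called, 4.42% higher and 6.37% lower. At any fold 13 were higher and 1 lower, against 27.9% and 27.2%, with a median of 0.64 against 0.0026. Over the 6 comparisons 14 of the 19 genes were called at least once. In all 35 called pairs of gene and comparison the libraries of both groups did not overlap in FPKM. The matching shares over all tested genes were not worked out, so neither count sets the collagens apart from other genes.

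**Figure D3:**
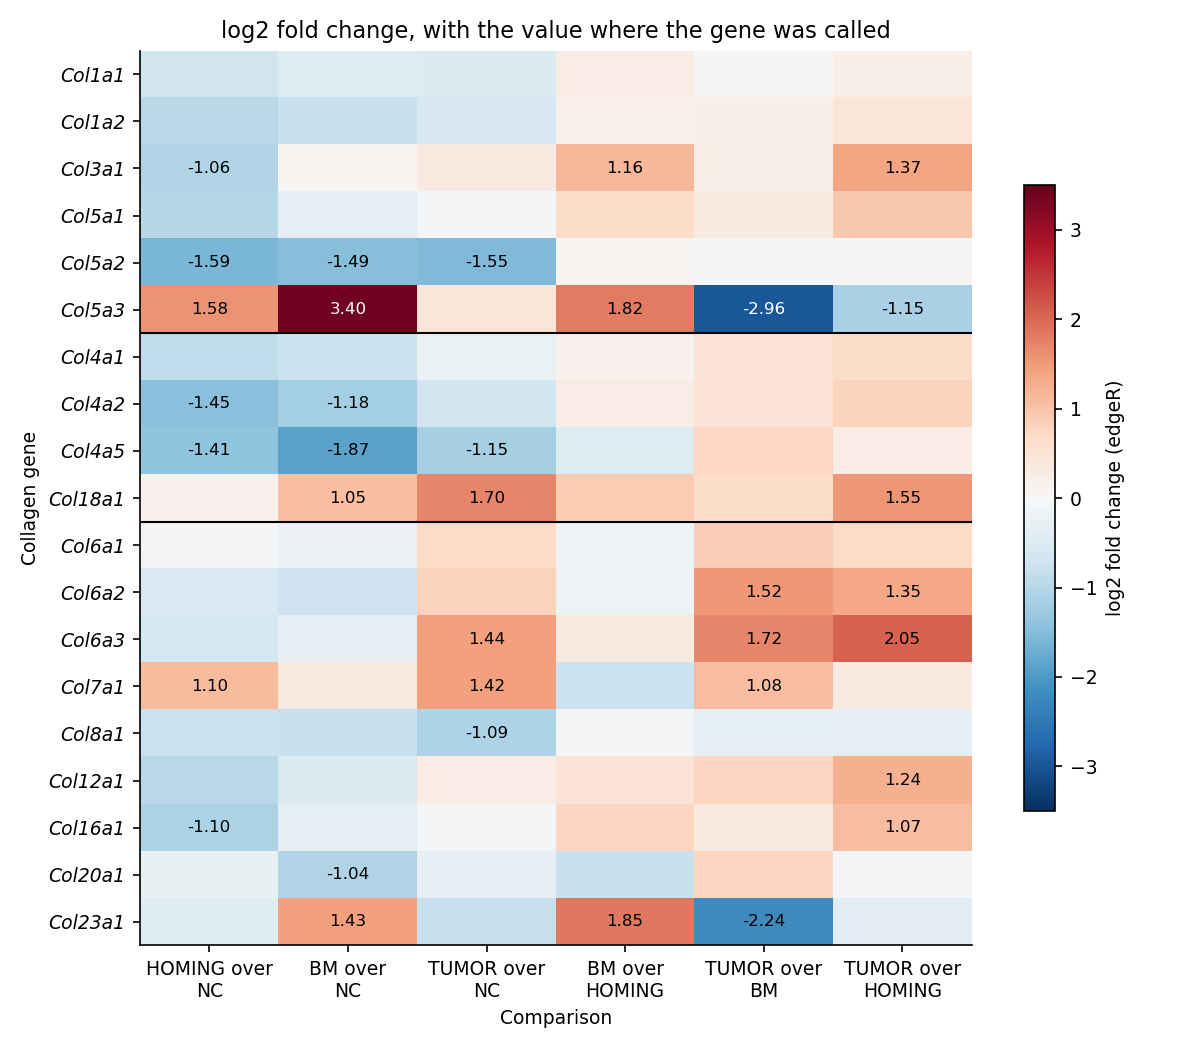
log2 fold changes from edgeR (colour scale) of 19 collagen genes (rows, by class) in 6 comparisons (columns), with the value written where the gene was called. Col5a3 runs from 3.40 in BM over NC to -2.96 in TUMOR over BM, Col5a2 is near -1.5 in all 3 comparisons with NC, and the type I chains carry no written value.

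Among fibrillar chains, the type I pair, which co-assemble into the main fibril of bone, skin and tendon, was called in 0 of 6 comparisons. Col1a1 (Entrez 12842) stood at 269.57, 259.56 and 281.41 FPKM in NC, 192.95, 177.08 and 168.30 in HOMING, 216.43, 216.05 and 204.05 in BM, and 172.29, 229.34 and 229.94 in TUMOR. Its partner Col1a2 (Entrez 12843) stood at 283.77, 272.77 and 300.15 FPKM in NC, 164.36, 160.01 and 149.93 in HOMING, 180.80, 177.87 and 165.85 in BM, and 177.28, 236.71 and 224.45 in TUMOR. NC lay above all libraries of the other groups for both chains, and TUMOR replicate 1 lay well under the other TUMOR libraries. The differences from NC were under 2-fold but beyond the spread of the libraries: in HOMING -0.70 ± 0.09 for Col1a1 (edgeR adjusted p 1.84e-05) and -0.96 ± 0.09 for Col1a2 (6.29e-07), in BM -0.43 ± 0.09 (0.00119) and -0.79 ± 0.09 (6.25e-06), and in TUMOR -0.49 ± 0.09 (0.000375) and -0.55 ± 0.09 (8.38e-05). Without HOMING replicate 1 the Col1a2 difference of HOMING from NC was -1.001 and became a call. Between TUMOR and BM, Col1a1 was not told apart (-0.05 ± 0.09, edgeR adjusted p 0.615). Col1a2 was 0.24 ± 0.09 higher in TUMOR (0.0255), with libraries that overlapped. The ratio of Col1a1 to Col1a2 was 0.946 ± 0.00766 in NC, 1.13 ± 0.0352 in HOMING, 1.21 ± 0.0166 in BM and 0.988 ± 0.0313 in TUMOR.

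Type III collagen, a trimer of Col3a1 chains that makes the reticular fibres of marrow and other soft organs, was low in HOMING alone. Col3a1 (Entrez 12825) had 41.61, 30.30 and 35.19 FPKM in NC, 18.63, 19.01 and 17.76 in HOMING, 41.49, 40.25 and 39.53 in BM, and 55.12, 44.45 and 44.59 in TUMOR. The 3 HOMING libraries lay under all the others, and BM and NC overlapped. Col3a1 rose in BM against HOMING by 1.16 ± 0.11 (edgeR adjusted p 1.38e-06) and in TUMOR against HOMING by 1.37 ± 0.11 (3.34e-07), and it fell in HOMING against NC, at -1.06 ± 0.11 (1.57e-06). The last of these calls is close to the 2-fold minimum: without NC replicate 1 the log2 difference was -0.95, which is no longer called. In BM against NC it was 0.10 ± 0.10 (0.420). As a ratio to Col1a1 within each library, Col3a1 was 0.132 ± 0.0198 in NC, 0.103 ± 0.00578 in HOMING, 0.191 ± 0.00384 in BM and 0.236 ± 0.0728 in TUMOR, where replicate 1 had 0.320 and the other libraries 0.194. Among the 16 tested collagens with a RefSeq start site, Col3a1 was the 1 with a TATAA motif in the 250 bases before it, and its letters are printed below with those of 3 other members.

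Type V collagen sits in the core of type I fibrils and limits their width, and its chains went separate ways. Col5a1 (Entrez 12831) had 20.12, 19.03 and 21.21 FPKM in NC, 11.26, 11.22 and 10.45 in HOMING, 16.99, 17.12 and 16.30 in BM, and 22.71, 20.85 and 20.90 in TUMOR. It was lowest in HOMING without overlap, at -0.99 ± 0.06 against NC (edgeR adjusted p 1.44e-08), just short of a call, and it became one, at -1.004 to -1.03, without any 1 of NC replicates 1 and 2 and HOMING replicates 1 and 2. Col5a2 (Entrez 12832), the usual partner of Col5a1, had 64.51, 77.14 and 64.27 FPKM in NC but 24.79, 25.01 and 23.85 in HOMING, 26.57, 25.82 and 25.20 in BM, and 22.14, 27.29 and 27.07 in TUMOR. Every library from an injected mouse was thus under every cultured one for Col5a2, and the 3 injected groups lay close together. It fell by 1.59 ± 0.08 on the log2 scale in HOMING (edgeR adjusted p 3.59e-09), 1.49 ± 0.08 in BM (2.52e-08) and 1.55 ± 0.08 in TUMOR (5.02e-09), each against the same NC libraries. Between the injected groups the Col5a2 differences were 0.11 ± 0.08 (BM against HOMING), -0.06 ± 0.08 (TUMOR against BM) and 0.04 ± 0.08 (TUMOR against HOMING), none with an adjusted p under 0.05. Col5a2 and Col3a1 are neighbours on chromosome 1 of the reference. Against NC, where Col5a2 fell in all 3 injected groups, Col3a1 also fell in HOMING, at -1.06. Its log2 differences in BM and TUMOR were 0.10 and 0.31.

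Col5a3 (Entrez 53867), a type V chain of narrower tissue range, rose against NC in both marrow groups, and its difference between BM and NC was the largest of the 19 tested collagens in the 6 comparisons. It had 1.62, 1.22 and 1.61 FPKM in NC, 4.76, 4.46 and 5.19 in HOMING, 16.61, 16.55 and 16.54 in BM, and 2.41, 2.11 and 2.04 in TUMOR. The 4 groups did not overlap, in the order NC, TUMOR, HOMING and BM, and the BM libraries differed from each other by less than 0.1 FPKM. Col5a3 rose in BM by 3.40 ± 0.10 against NC (edgeR adjusted p 7.84e-10) and by 1.82 ± 0.10 against HOMING (1.24e-08). It rose in HOMING against NC by 1.58 ± 0.10 (3.13e-08), and it fell in TUMOR by 2.96 ± 0.10 against BM (3.78e-10) and by 1.15 ± 0.10 against HOMING (9.25e-07). In TUMOR against NC the difference was 0.44 ± 0.11 (0.00249), under 2-fold. The ratio of Col5a3 to Col5a2 shows how far the type V messages changed in makeup: 0.0220 ± 0.00535 in NC, 0.196 ± 0.0199 in HOMING, 0.641 ± 0.0156 in BM and 0.0872 ± 0.0188 in TUMOR. The ratio of Col5a1 to Col5a2 was 0.296 ± 0.0438 in NC, 0.447 ± 0.00815 in HOMING, 0.650 ± 0.0121 in BM and 0.854 ± 0.149 in TUMOR.

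The letters before the start sites of Col5a3, Col23a1 and Col3a1 are shown because these are the 3 collagens that rose in BM against HOMING. Those of Col18a1 are added because its transcripts are described below, though other collagens were also split over several transcripts. The letters are the 250 bases before a RefSeq start in build GRCm38.p6, written 5′ to 3′ on the strand of the gene. Capitals mark matches on either strand to 4 short motifs, namely TATAA as in a TATA box, the letters CCAAT that name another common promoter box, the GC box GGGCGG and the site TGANTCA (bound by factors of the AP-1 family, N being any base).
Col5a3, chr9:20815068-20815317, minus strand: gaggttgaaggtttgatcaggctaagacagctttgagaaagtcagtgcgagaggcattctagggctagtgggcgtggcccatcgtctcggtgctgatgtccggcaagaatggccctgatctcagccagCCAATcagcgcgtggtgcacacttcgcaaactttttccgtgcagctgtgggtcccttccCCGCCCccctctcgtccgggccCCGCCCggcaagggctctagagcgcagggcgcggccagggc
Col23a1, chr11:51289670-51289919, plus strand: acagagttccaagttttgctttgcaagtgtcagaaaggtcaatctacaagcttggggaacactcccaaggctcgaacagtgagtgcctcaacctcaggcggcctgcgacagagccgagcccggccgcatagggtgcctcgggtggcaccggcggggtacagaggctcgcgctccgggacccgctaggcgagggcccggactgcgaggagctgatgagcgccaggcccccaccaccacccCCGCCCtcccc
Col3a1, chr1:45311288-45311537, plus strand: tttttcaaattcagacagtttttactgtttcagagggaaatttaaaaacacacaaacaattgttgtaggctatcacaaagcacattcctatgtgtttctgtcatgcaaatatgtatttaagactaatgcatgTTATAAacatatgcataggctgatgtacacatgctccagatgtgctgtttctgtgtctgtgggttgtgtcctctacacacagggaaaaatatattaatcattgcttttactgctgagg
Col18a1, upstream start, chr10:77166531-77166780, minus strand: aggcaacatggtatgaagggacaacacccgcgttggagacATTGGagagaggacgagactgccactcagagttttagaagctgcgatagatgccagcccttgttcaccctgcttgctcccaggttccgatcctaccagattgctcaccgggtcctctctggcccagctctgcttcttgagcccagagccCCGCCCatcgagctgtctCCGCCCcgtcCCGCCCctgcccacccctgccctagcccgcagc
Col5a3 has a CCAAT match whose first base lies 122 bases before the start and GC boxes at 63 and 41. Col23a1 has 1 GC box, at 11, and Col3a1 has overlapping TATAA matches on both strands, at 118 and 117. Col18a1 has a CCAAT match at 210 and GC boxes at 61, 43 and 33. None of the 4 motifs was in the windows of all 3 genes that rose in BM against HOMING. RefSeq windows were found for 34 of the 43 collagens, 16 of the 19 tested, some with more than 1 start. GGGCGG was in 22 of 36 collagen windows (61.1%) against 32.7% of 32851 windows of all genes, CCAAT in 12 (33.3%) against 33.8%, TATAA in 6 (16.7%) against 22.8%, and TGANTCA in 1 (2.78%) against 6.75%. A match of letters is a description and not a site of binding.

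Type IV collagen forms the network of basement membranes, and its chains Col4a1 and Col4a2 are transcribed in opposite directions from neighbouring starts. RefSeq places the starts head to head on chr8:11312805-11312826 of GRCm38.p6, so that the transcripts of the pair overlap by 22 bases on opposite strands. Col4a1 (Entrez 12826) had 45.45, 49.65 and 52.14 FPKM in NC, 29.46, 29.16 and 27.73 in HOMING, 32.53, 31.88 and 28.88 in BM, and 50.70, 42.50 and 42.44 in TUMOR. Col4a2 (Entrez 12827) had 55.19, 60.65 and 59.79 FPKM in NC, 24.13, 22.99 and 22.28 in HOMING, 27.73, 28.49 and 25.91 in BM, and 45.40, 37.57 and 37.43 in TUMOR. Both chains were low in both marrow groups. In TUMOR, Col4a1 overlapped with NC, while Col4a2 lay between NC and the marrow groups without overlap. Its log2 difference in TUMOR was -0.67 ± 0.08 against NC (edgeR adjusted p 7.09e-06) and 0.51 ± 0.08 against BM (9.97e-05). Only Col4a2 was called: it fell against NC by 1.45 ± 0.08 in HOMING (edgeR adjusted p 7.79e-09) and by 1.18 ± 0.08 in BM (1.35e-07). Col4a1 was at -0.88 ± 0.08 (1.01e-06) and -0.74 ± 0.08 (7.67e-06) in the same comparisons. The ratio of Col4a1 to Col4a2 was 0.838 ± 0.0295 in NC, with all 3 libraries under 0.88, and 1.24 ± 0.0237 in HOMING, 1.14 ± 0.0326 in BM and 1.13 ± 0.00921 in TUMOR, with all 9 over 1.1.

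Col4a5 (Entrez 12830), the X-linked type IV chain that is altered in Alport kidney disease, was lower in every injected group. It had 15.34, 15.45 and 17.52 FPKM in NC, 6.82, 6.83 and 6.10 in HOMING, 4.79, 4.62 and 4.64 in BM, and 6.56, 8.87 and 8.38 in TUMOR. NC and BM stood apart from all other libraries, at the top and the bottom, while HOMING and TUMOR overlapped. It fell against NC by 1.41 ± 0.10 in HOMING (edgeR adjusted p 4.77e-08), 1.87 ± 0.10 in BM (1.77e-08) and 1.15 ± 0.10 in TUMOR (2.43e-07). The partners it assembles with elsewhere were low, Col4a6 at 0.08 to 0.29 FPKM, Col4a4 at 0.01 to 0.11 and Col4a3 at 0.00 to 0.03. Relative to Col4a1, Col4a5 was 0.328 ± 0.0148 in NC, 0.229 ± 0.00756 in HOMING, 0.151 ± 0.00850 in BM and 0.179 ± 0.0429 in TUMOR.

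**Figure D4:**
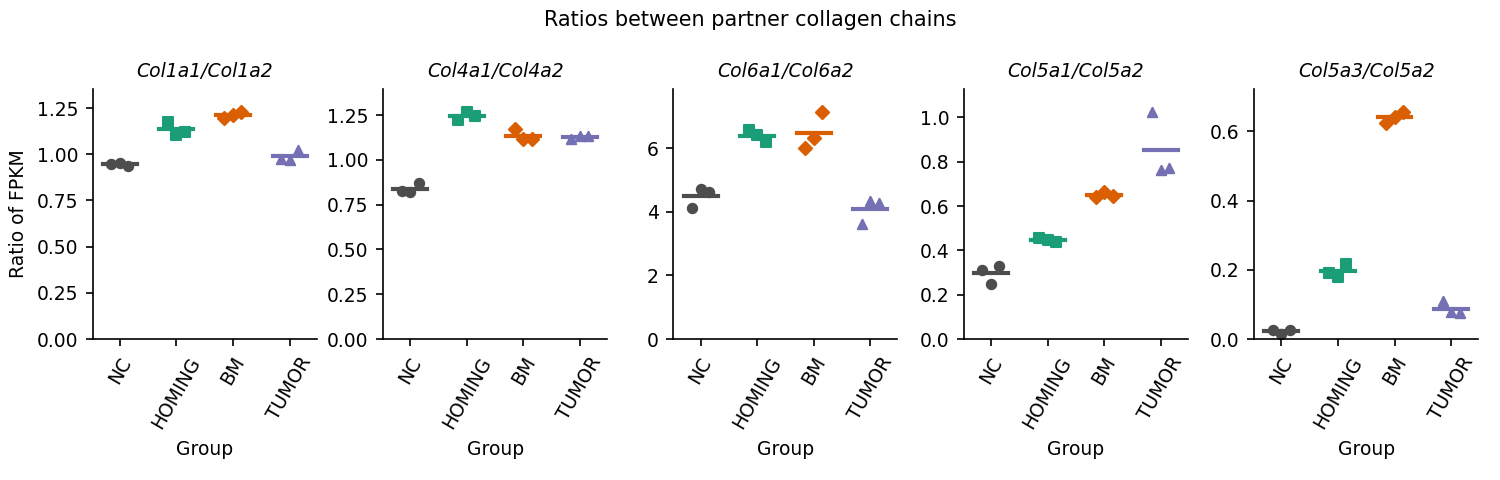
Ratios of FPKM between chains of the same collagen type (vertical axes, each from 0) in the 4 groups, with a point for each library and a line for each group mean. Col4a1 over Col4a2 is under 0.88 in NC and over 1.1 in every other library, and Col5a3 over Col5a2 is highest in BM.

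Col18a1 (Entrez 12822), a heparan sulfate-bearing basement membrane collagen whose end fragment is endostatin, rose where the type IV chains did not. It had 3.16, 3.41 and 4.06 FPKM in NC, 4.38, 4.16 and 4.59 in HOMING, 8.12, 8.12 and 7.97 in BM, and 16.72, 11.79 and 12.13 in TUMOR. The groups followed each other without overlap, and TUMOR replicate 1 was highest. Col18a1 rose against NC by 1.70 ± 0.13 in TUMOR (edgeR adjusted p 8.82e-08) and by 1.05 ± 0.13 in BM (1.25e-05), and against HOMING by 1.55 ± 0.12 in TUMOR (4.54e-07). The call in BM against NC was lost without NC replicate 1, at 0.97. In HOMING against NC it was 0.16 ± 0.13 (0.286). The deposited tables split the gene over 4 transcripts, as estimated by the authors' counting. The RefSeq transcript of 5058 bases, from the upstream start whose window is printed above, had 1.26, 1.58 and 2.12 FPKM in NC, 2.77, 2.67 and 3.24 in HOMING, 6.10, 5.72 and 5.41 in BM, and 15.09, 9.83 and 10.43 in TUMOR. The RefSeq transcript of 5642 bases, from the downstream start, had 0.79, 0.60 and 0.78 FPKM in NC, 0.09, 0.12 and 0.14 in HOMING, 0.32, 0.34 and 0.51 in BM, and 0.11, 0.17 and 0.19 in TUMOR. Both other transcripts, without a RefSeq identifier, are longer still. The one of 6426 bases had 0.65, 0.97 and 0.45 FPKM in NC and was listed at 0 in all TUMOR libraries, and the one of 6430 bases had 0.46, 0.26 and 0.71 in NC and 1.52, 1.79 and 1.51 in TUMOR. Thus the 5058-base form was higher in every TUMOR library than in any NC library, and the 5642-base form lower. The 6430-base form was also higher and the 6426-base form lower, but these forms are nearly the same length and their split varied within groups. In BM the 6426-base form had 0.00, 0.87 and 0.52 FPKM, and the 6430-base form 1.70, 1.19 and 1.53. The 3 longer forms summed to 1.90, 1.83 and 1.94 FPKM in NC and 1.63, 1.96 and 1.70 in TUMOR, which overlap, so that the gene's difference lay in the 5058-base form. With the most abundant transcript in place of the gene sum, the log2 difference from NC was 2.73 in TUMOR and 1.72 in BM. It was then 1.01 in BM against HOMING and 1.01 in TUMOR against BM, both calls. By the gene sum these differences were 0.89 ± 0.12 (edgeR adjusted p 5.70e-05) and 0.66 ± 0.12 (0.000357), under 2-fold.

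**Figure D5:**
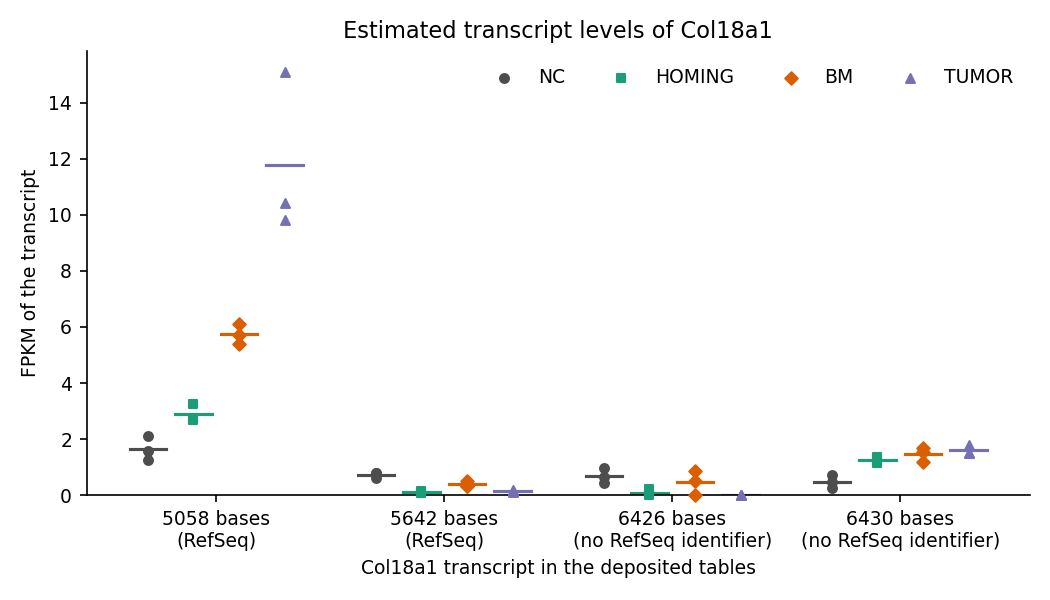
FPKM (vertical axis, from 0) of the 4 Col18a1 transcripts in the deposited tables (horizontal axis, by length) in the 4 groups, with a point for each library and a line for each mean. The 5058-base transcript lies highest in TUMOR, with means of 1.65, 2.89, 5.74 and 11.8 FPKM in NC, HOMING, BM and TUMOR, and the 5642-base transcript lies highest in NC.

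Type VI collagen forms beaded microfilaments around cells, from trimers that hold 1 chain each of Col6a1, Col6a2 and Col6a3, and all 3 were highest in TUMOR. Col6a3 (Entrez 12835) had 3.62, 4.15 and 7.95 FPKM in NC, 3.82, 3.68 and 3.51 in HOMING, 4.69, 4.49 and 4.49 in BM, and 17.99, 13.99 and 14.30 in TUMOR. It rose in TUMOR by 1.44 ± 0.23 against NC (edgeR adjusted p 9.68e-05), 1.72 ± 0.23 against BM (2.94e-05) and 2.05 ± 0.24 against HOMING (1.17e-05). NC replicate 3 was the 1 library outside TUMOR above 5 FPKM, and NC overlapped with both HOMING and BM. Without that library the log2 difference of TUMOR from NC was 1.89. Col6a2 (Entrez 12834) had 5.35, 3.82 and 6.42 FPKM in NC, 3.94, 3.99 and 3.63 in HOMING, 3.60, 3.56 and 2.87 in BM, and 10.23, 9.56 and 9.74 in TUMOR. It rose in TUMOR by 1.52 ± 0.15 against BM (2.37e-06) and 1.35 ± 0.15 against HOMING (1.01e-05), and against NC it was 0.81 ± 0.15 higher (0.000319), under 2-fold, but 1.004 and a call without NC replicate 3. Col6a1 (Entrez 12833), the most abundant of the 3, had 22.03, 17.99 and 29.75 FPKM in NC, 25.89, 25.66 and 22.48 in HOMING, 21.68, 22.46 and 20.52 in BM, and 37.10, 41.39 and 41.70 in TUMOR. All TUMOR libraries lay above all others for Col6a1, but the differences were 0.66 to 0.85 on the log2 scale and were not called. The ratio of Col6a3 to Col6a1 was 0.389 ± 0.0834 in TUMOR and 0.221 ± 0.0522 in NC, 0.149 ± 0.00649 in HOMING and 0.212 ± 0.0103 in BM. The ratio of Col6a1 to Col6a2 was 4.49 ± 0.322 in NC and 4.08 ± 0.393 in TUMOR, against 6.40 ± 0.191 in HOMING and 6.49 ± 0.586 in BM.

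The fibril-associated collagens Col12a1 and Col16a1 lie on the surface of fibrils and link them to the surrounding matrix, and both were lowest in HOMING. Col12a1 (Entrez 12816) had 10.59, 11.72 and 9.96 FPKM in NC, 6.49, 6.60 and 6.03 in HOMING, 8.72, 8.10 and 8.03 in BM, and 13.06, 15.94 and 15.03 in TUMOR. The groups did not overlap, and it rose in TUMOR against HOMING by 1.24 ± 0.07 (edgeR adjusted p 1.28e-08). Against NC it was -0.98 ± 0.07 in HOMING (4.88e-08), just short of a call, and -1.01 and a call without NC replicate 3. Col16a1 (Entrez 107581) had 15.56, 16.10 and 21.28 FPKM in NC, 9.53, 8.90 and 8.40 in HOMING, 14.82, 14.71 and 14.79 in BM, and 20.44, 18.70 and 17.37 in TUMOR. NC and TUMOR overlapped, and HOMING lay under every other library. Col16a1 fell in HOMING against NC at -1.10 ± 0.11 (2.35e-06) and rose in TUMOR against HOMING by 1.07 ± 0.11 (6.19e-06). Both calls depended on 1 library: without NC replicate 3 the first was -0.92, and without TUMOR replicate 1 the second was 0.99. Col20a1, a little-studied member of this group, was listed under 1 transcript of 10920 bases with no RefSeq identifier, so what its 0.57 to 1.47 FPKM stand for is uncertain. It fell in BM against NC at -1.04 ± 0.13 (1.66e-05), and was -0.93 without NC replicate 1, -0.99 without NC replicate 2 and -0.96 without BM replicate 3, no longer called in each case.

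The remaining 3 tested collagens each had a pattern of their own. Col23a1 (Entrez 237759), a transmembrane collagen that can be shed from the cell surface, had 1.06, 0.86 and 2.31 FPKM in NC, 1.00, 0.94 and 1.08 in HOMING, 4.61, 4.46 and 4.19 in BM, and 0.70, 0.90 and 0.79 in TUMOR. BM stood above all other libraries, with NC replicate 3 next. It rose in BM by 1.85 ± 0.23 against HOMING (edgeR adjusted p 1.76e-05) and 1.43 ± 0.22 against NC (0.000102), and fell in TUMOR by 2.24 ± 0.23 against BM (2.77e-06). In TUMOR against NC it was -0.81, not called, but -1.02 and a call without NC replicate 2. The libraries of these groups overlapped, and NC replicate 3, at 2.31 FPKM, was far above the other NC libraries. Col23a1 thus shared with Col5a3 its highest level in BM and a fall from BM to TUMOR. Col7a1 (Entrez 12836), the anchoring fibril collagen that ties skin epithelium to the dermis, was low throughout, at 0.59, 0.63 and 0.81 FPKM in NC, 1.60, 1.64 and 1.47 in HOMING, 0.97, 0.83 and 0.94 in BM, and 1.82, 2.21 and 1.92 in TUMOR. The 4 groups did not overlap, and it rose against NC by 1.10 ± 0.12 in HOMING (4.51e-06) and 1.42 ± 0.12 in TUMOR (3.50e-07), and by 1.08 ± 0.12 in TUMOR against BM (5.49e-06). Without NC replicate 1 the first of these was 0.9952, and without TUMOR replicate 2 the last was 0.998, both just under a call. With limma on log2(FPKM + 1) the differences were 0.62, 0.83 and 0.64 in turn, and none was called. Col7a1 was under 1 FPKM in every NC and BM library and passed the filter only through HOMING and TUMOR. Its rises in those groups were thus partly set by the filter. Of 5 skin epithelium markers, Krt5, Krt14, Krt1 and Dsp were under 1 FPKM in every group. Krt10 had means of 1.18 FPKM in NC, 1.16 in HOMING, 0.90 in BM and 0.88 in TUMOR.

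Col8a1 (Entrez 12837), a short-chain collagen of vessel walls and of the cornea, was highest in culture. It had 26.61, 31.06 and 44.82 FPKM in NC, 22.25, 22.07 and 21.91 in HOMING, 21.59, 20.91 and 20.54 in BM, and 14.52, 19.09 and 18.97 in TUMOR. The groups did not overlap, but NC replicate 3 was far above the other NC libraries and TUMOR replicate 1 under the other TUMOR ones. Col8a1 fell in TUMOR against NC at -1.09 ± 0.16 (edgeR adjusted p 4.21e-05). The difference was -0.83 without NC replicate 3 and -0.98 without TUMOR replicate 1, and then no longer a call. The smooth muscle and pericyte gene Acta2 also varied among NC libraries, from 231 to 435 FPKM, and its part in the Col8a1 result was not tested. The other short-chain member of this type, Col8a2, was at 0.02 to 0.09 FPKM.

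Genes that modify and fold collagen chains moved most in TUMOR. Of 21 in the list, 19 were tested. In TUMOR against NC, 4 rose and 2 fell, in TUMOR against HOMING 4 rose and 1 fell, and in TUMOR against BM 3 rose and 1 fell, where 16.4%, 10.8% and 14.2% of all tested genes were called. Their medians were 0.33, 0.29 and 0.34 on the log2 scale, against 0.0090, 0.0026 and 0.0098 for all tested genes. Those that rose were lysyl and prolyl hydroxylases. Plod2, which hydroxylates lysines of the chain ends, had 48.5 ± 5.62 FPKM in TUMOR and 11.6 ± 1.31 in NC, 15.8 ± 0.258 in HOMING and 17.0 ± 0.577 in BM. Plod1 had 58.3 ± 8.08 FPKM in TUMOR and means of 17.2 to 22.1 elsewhere. P4ha2, a catalytic subunit of the prolyl hydroxylase that stabilises the helix, had 50.7 ± 3.54 FPKM in TUMOR and means of 13.0 to 19.1 elsewhere. P4ha1, the major subunit, had 54.7 ± 1.84 FPKM in TUMOR against 24.7 ± 1.95 in NC, 25.8 ± 0.645 in HOMING and 31.3 ± 0.650 in BM, and its difference from BM was not called. The log2 differences of TUMOR from NC were 1.94 ± 0.09 for Plod2, 1.85 ± 0.09 for P4ha2, 1.28 ± 0.10 for Plod1 and 1.03 ± 0.05 for P4ha1. Tmem38b, an ion channel of the endoplasmic reticulum needed for normal collagen processing, fell in TUMOR in all 3 comparisons, at -1.19 ± 0.12 against NC, -1.25 ± 0.12 against HOMING and -1.18 ± 0.12 against BM, with 2.61 ± 0.586 FPKM in TUMOR and means of 5.44 to 6.16 elsewhere.

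Serpinh1, the chaperone that binds collagen helices, followed the culture instead. It had 384 ± 13.2 FPKM in NC, 147 ± 6.94 in HOMING, 214 ± 5.64 in BM and 179 ± 1.79 in TUMOR, and fell against NC in HOMING at -1.50 ± 0.04 (edgeR adjusted p 5.32e-11) and in TUMOR at -1.23 ± 0.04 (2.23e-10). In BM against NC it was -0.92 ± 0.04 (8.77e-09), just short of a call. In HOMING against NC, P3h2, a prolyl hydroxylase of basement membrane collagen, was the other gene of this list that fell, at -1.70 ± 0.12.

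Of 13 genes of procollagen cleavage and crosslinking, 10 were tested. Loxl2, a lysyl oxidase that acts on type IV collagen, had 31.0 ± 2.96 FPKM in TUMOR against 5.33 ± 1.36 in NC, 8.20 ± 0.242 in HOMING and 9.02 ± 0.236 in BM, and rose in TUMOR by 2.42 ± 0.13, 1.91 ± 0.12 and 1.73 ± 0.12 in turn. Pcolce2, an enhancer of propeptide removal, rose in TUMOR by 1.32 ± 0.15 against NC and 1.00 ± 0.15 against HOMING, and Loxl3 by 1.25 ± 0.07 against BM. Those were all the rises of this list in the TUMOR comparisons. Loxl4 was highest in NC, at 23.5 ± 3.12 FPKM, and fell to 10.3 ± 0.0889 in HOMING and 10.6 ± 0.526 in BM. Lox, the main enzyme, stood at means of 97.4 to 130 FPKM in the 4 groups and was not called. Adamts14, which trims the front propeptide, rose in BM by 1.20 ± 0.18 against HOMING and by 1.04 ± 0.18 against NC.

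Fibril-associated proteoglycans and assembly proteins, 6 tested of 12, were led by decorin in BM. Decorin (Dcn), which binds type I fibrils and limits their width, had 605 ± 18.3 FPKM in BM, 207 ± 16.5 in HOMING, 96.1 ± 20.6 in NC and 65.7 ± 11.5 in TUMOR. It rose in BM by 2.57 ± 0.14 against NC and 1.58 ± 0.14 against HOMING, and fell in TUMOR by 3.24 ± 0.15 against BM and by 1.67 ± 0.14 against HOMING. Like Col5a3, Dcn was thus highest in BM with HOMING next, but its NC and TUMOR values came in the other order. Fibronectin (Fn1), on which cells lay down type I collagen, had 573 ± 9.13 FPKM in NC, 153 ± 2.64 in HOMING, 238 ± 17.8 in BM and 172 ± 22.9 in TUMOR, and fell against NC in all 3, at -2.01 ± 0.08, -1.35 ± 0.08 and -1.87 ± 0.08. Osteoglycin (Ogn) was low throughout but fell against NC in all 3 groups, from 4.15 ± 0.345 FPKM to 0.943 ± 0.0850 in HOMING, 0.370 ± 0.0173 in BM and 2.18 ± 0.165 in TUMOR. Sparc, a collagen-binding protein of the matrix, fell in BM against NC at -1.27 ± 0.10.

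Receptors and collagen-degrading enzymes completed the lists. Of 10 receptors 6 were tested. Ddr2, a receptor tyrosine kinase for fibrillar collagen, fell in HOMING against NC at -1.31 ± 0.08, from 46.0 ± 5.26 to 20.1 ± 0.349 FPKM. Ddr1, its relative on epithelium, rose in TUMOR against BM by 1.02 ± 0.06, and the integrin chain Itga1 in TUMOR against NC by 1.01 ± 0.14. Lair1, an inhibitory receptor of leukocytes, had 1.96 to 3.11 FPKM in HOMING, 0.09 to 0.15 in BM and at most 0.03 in any other library. No fold against NC is given for it, because the 3 NC libraries held 3 counts in all. Of 9 breakdown genes 6 were tested, and 3 rose in HOMING and 4 in BM against NC, where 9.64% and 7.93% of all tested genes were called higher. Among those that rose, Mmp8, Mmp9 and Mmp2 were at most 0.02, 1.15 and 0.64 FPKM in NC, Mmp8 with 3 counts in all. They passed the filter through groups where they were high, so these counts do not set the breakdown genes apart from other genes. Mmp13, an interstitial collagenase, had 36.7 ± 8.85 FPKM in HOMING, 33.5 ± 1.25 in BM, 10.2 ± 2.49 in NC and 1.68 ± 0.104 in TUMOR, and fell in TUMOR by 4.36 ± 0.21 against BM and by 2.73 ± 0.21 against NC. Mmp9, a gelatinase, had 14.5 ± 4.71 FPKM in HOMING and 2.86 ± 0.254 in BM, and Mmp8, the collagenase of neutrophils, 29.8 ± 9.40 and 2.49 ± 0.160. Mmp2, another gelatinase, was low in every group but rose in BM, from 0.443 ± 0.182 FPKM in NC and 0.593 ± 0.0709 in HOMING to 1.33 ± 0.142, at 1.45 ± 0.33 against NC (edgeR adjusted p 0.00201) and 1.13 ± 0.33 against HOMING (0.0101). The leukocyte markers given above were high in the same HOMING libraries and intermediate in BM, and their part in the Mmp8, Mmp9 and Lair1 levels was not tested. Mmp14, the membrane-bound collagenase activator, stood at means of 54.8 to 64.3 FPKM in the 4 groups and was not called.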

How the data were processed

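RNA sequencing of 12 libraries was used, 3 for each of 4 groups taken from the sample titles and group labels. Per the labels' protocols, RNA of frozen sorted cells was isolated with Trizol, and the Illumina TruSeq kit for RNA was used. Per the submitters' processing notes, Bowtie 0.12.2 and mouse build mm8 were used. Which program counted reads is not stated in these sources. Per transcript, the authors deposited expected counts without normalization and FPKM rounded to 2 decimals. Both were summed per Entrez number, and 19629 of 19679 numbers matched a symbol. Transcripts that were not listed count as 0.

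The 12314 genes that reached 1 FPKM in 3 or more libraries were tested. Expected counts, rounded to whole numbers, were scaled by TMM (factors 0.929 to 1.04) and a quasi-likelihood model with a mean for each group was fitted (edgeR 4.0.16, R 4.3.3). A two-sided F-test was made for each of 6 comparisons, with Benjamini-Hochberg adjustment over all tested genes. The fit was tested on simulated data. No test was made on ratios or sums. Members, lists and tests were chosen with earlier results of these data known. All members with at least 5 FPKM in a group or with a call are named, and up to 4 genes of a pathway list in a comparison by adjusted p, or by level where none was called. A few genes without a call (Lox, Mmp14, Acta2) were added after their values were seen. Col9a1 is not among the genes listed.

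Libraries of 1 group differed by more than counting noise (3.09 to 49.9 chi-square per gene over 12 pairs), so none was merged. Replicate numbers did not pair the samples: deviations of same-numbered libraries correlated at -0.12 to 0.22 over 18 pairs. Alternatives were DESeq2 1.42.0, limma 3.58.1 on log2(FPKM + 1) or log2(FPKM + 0.1), other scalings, no filter, the highest transcript, the compared groups alone, no 2-fold minimum, a replicate block, and each library omitted in turn. Leaving out libraries for sums and ratios was added after seeing the data. Promoter letters and start sites are from RefSeq (GRCm38.p6). Python 3.11.15, pandas 2.3.3 and matplotlib 3.10.9 were used.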

Additional observations from a re-analysis of the deposited data

How the results depend on the processing

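Fold changes of the 35 called pairs of collagen gene and comparison kept their direction in all alternatives run. Under alternatives other than leaving out a library, 332 values kept the call and 18 lost it, and with 1 library left out 199 kept it and 11 lost it. The number of collagens called was 7 in HOMING against NC, 7 in BM against NC, 6 in TUMOR against NC, 3 in BM against HOMING, 5 in TUMOR against BM and 7 in TUMOR against HOMING. With limma on log2(FPKM + 1) it was 4 in HOMING against NC, without Col16a1, Col3a1 and Col7a1, and 3 in TUMOR against NC, without Col4a5, Col7a1 and Col8a1. That setting also lost Col20a1 in BM against NC (-0.45) and Col7a1 in TUMOR against BM (0.64). In TUMOR against HOMING it lost Col5a3 (-0.86) and Col16a1 (0.995). On log2(FPKM + 0.1), Col16a1 and Col3a1 in HOMING against NC were also lost, at -0.96 and -0.94. So were Col8a1 in TUMOR against NC (-0.93) and Col20a1 in BM against NC (-0.85), and the cause was not tested. Without the expression filter the counts were 17, 15, 14, 7, 12 and 11 in the same order, mostly through genes under 1 FPKM. With no minimum fold change they were 15, 16, 16, 12, 15 and 14. Leaving out 1 library gave 6 to 9, 5 to 7, 5 to 7, 3, 4 to 5 and 6 to 7. The replicate block left all 6 counts at 7, 7, 6, 3, 5 and 7, although the numbers do not pair the samples.

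Scaling by library totals moved the median of all genes by 0.11 in HOMING, 0.082 in BM and 0.12 in TUMOR, each against NC. The calls of Col16a1 and Col3a1 (in HOMING against NC), Col8a1 (in TUMOR against NC) and Col20a1 (in BM against NC) were lost. Relative to the shift of the same comparison their values were -1.10, -1.06, -1.09 and -1.05. With expected counts in place of FPKM, collagens took 0.528, 0.307, 0.370 and 0.436% of the total in NC, HOMING, BM and TUMOR, against 0.182, 0.104, 0.130 and 0.148% of summed FPKM. Fibrillar chains then took 0.390, 0.226, 0.279 and 0.297%, basement membrane chains 0.0823, 0.0405, 0.0454 and 0.0677%, and others 0.0564, 0.0401, 0.0449 and 0.0711%, since these transcripts are long and counts are not scaled to length. With the highest transcript of each gene, Col5a1 to Col5a2 was 0.415 in HOMING and 0.602 in BM, and Col6a1 to Col6a2 was 4.91 in NC and 6.94 in HOMING. The ratio of Col8a1 to Col8a2 is not given, because Col8a2 was at 0.02 to 0.09 FPKM in files of 2 decimals.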
